A study of Homo sapiens with 10 samples.

Results

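Desmosomes are the spot-like junctions that rivet epithelial cells together and anchor their keratin filaments, and 10 genes that encode them were followed here through ABL kinase inhibition and ABL1/ABL2 knockdown in lung adenocarcinoma cells. The genes were taken by name rather than by a cut on measured values, though earlier results of these data were known. They were the desmosomal cadherins DSG2, DSG3, DSC2 and DSC3, the plaque proteins DSP, PKP1, PKP2, PKP3 and JUP, and the membrane protein PERP. All 10 were found among the 23234 genes listed in every table. Of these, 7 stood at 1 FPKM (fragments per kilobase of transcript, scaled to the mapped fragments of the library) or more in each library, and DSG3, DSC3 and PKP1 stayed under 1 FPKM in each.

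The study sequenced RNA from 10 libraries of 3 established human lines, PC9, PC9M and H358, with 1 library per group. The labels call all 3 lines adenocarcinoma, and describe PC9 as a general metastasis model and PC9M as one with more bone and brain metastasis. For the drug comparison, cells of each line received GNF5, an allosteric inhibitor of the ABL kinases, for 72 h and were set against a control of the same line labelled DMSO. PC9M had a labelled dose of 20 mM and the other two lines one of 10 mM; whether mM is the true unit could not be tested. For the knockdown comparison, PC9 and PC9M received shRNAs against ABL1 and ABL2 or a scrambled shRNA, both by transduction with polybrene at 8 µg/mL. All groups shared 1 culture medium, and no time is labelled for the knockdown. Each comparison was deposited as a table of its own, normalised separately, so levels from different tables are set side by side and not tested.

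In a desmosome, desmogleins and desmocollins (the DSG and DSC families) meet across the gap between cells. Inside, plakoglobin (JUP) and the plakophilins (PKP) bind the cadherin tails, and desmoplakin (DSP) links this plaque to keratin. DSG2, DSC2 and PKP2 serve simple epithelia and heart muscle, whereas DSG3, DSC3 and PKP1 belong mainly to stratified epithelia such as skin, where desmosomes give mechanical strength.

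Epithelial identity was checked first. All 6 epithelial markers (EPCAM, CDH1, KRT7, KRT8, KRT18 and KRT19) exceeded 1 FPKM in every library, with a summed level of 2290.5 to 13850.9 FPKM. Among 5 lung adenocarcinoma markers, NKX2-1, the lineage factor of distal lung, reached 92.1 FPKM in the H358 control and 46.3 FPKM with GNF5. It was at most 0.0206 FPKM in any PC9 or PC9M library. NAPSA was also highest in H358, at 9.47 and 4.73 FPKM, beside 1.37 and 1.23 FPKM with DMSO and GNF5 in PC9. SFTPB went the other way, at 15.2 and 3.95 FPKM in those PC9 libraries and at most 0.197 FPKM in the others. SFTPC and SFTPA1 were at most 0.0429 FPKM in any library. Summed levels were 1.31 to 13.2 FPKM for 7 fibroblast markers, 5.43 to 41.5 FPKM for 6 leukocyte markers (mostly CD68) and 2.34 to 31.6 FPKM for 4 endothelial markers, with DCN at 0 throughout and PTPRC at most 0.104 FPKM. The 5 squamous markers summed to 1.28 FPKM in the PC9M DMSO library and to 222.6 FPKM in the PC9 scrambled library. That sum was mostly KRT6A (112 FPKM) and KRT5 (89.3 FPKM), with TP63 at 0.606 FPKM and SOX2 at 0. The H358 DMSO library summed to 60.8 FPKM with the opposite make-up, TP63 at 34.4, SOX2 at 25.8 and KRT6A at 0.123 FPKM. As a check of the knockdown, ABL1 stood at 24.9 FPKM with the scrambled shRNA and 3.97 FPKM with the ABL shRNAs in PC9, and at 10.5 and 3.56 FPKM in PC9M. ABL2 stood at 7.88 and 1.87 FPKM in PC9, and at 5.22 and 3.03 FPKM in PC9M.

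The desmosomal cadherin genes lie side by side, and only part of the cluster was expressed. In hg18, the build of the deposited tables, the cluster spans chr18:26824050-27390872 (566.8 kb) and holds 7 cadherin genes in the order DSC3, DSC2, DSC1, DSG1, DSG4, DSG3, DSG2. DSC2 occupies chr18:26899940-26936386 and DSG2 chr18:27332025-27390872. Each has a low neighbour from its own family, DSC3 at chr18:26824050-26876779 and DSG3 at chr18:27281730-27312663. The other members lie apart, with DSP at chr6:7486869-7531945, PERP at chr6:138451335-138470353, PKP1 at chr1:199519203-199568744, PKP2 at chr12:32834947-32941047, PKP3 at chr11:384217-394908 and JUP at chr17:37164385-37196490.

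The promoters of the 2 expressed and 2 low cadherins of the cluster, and of DSP, are shown because they let the neighbours be compared base by base. Each sequence is the 250 bases upstream of an annotated start, from RefSeq on GRCh38.p14, read 5′ to 3′ on the strand of the gene. Capitals mark CACCTG, the E-box bound by SNAI-family repressors, on either strand. DSC2 has 2 annotated starts and both windows are printed.
DSG2, chr18:31497927-31498176, plus strand: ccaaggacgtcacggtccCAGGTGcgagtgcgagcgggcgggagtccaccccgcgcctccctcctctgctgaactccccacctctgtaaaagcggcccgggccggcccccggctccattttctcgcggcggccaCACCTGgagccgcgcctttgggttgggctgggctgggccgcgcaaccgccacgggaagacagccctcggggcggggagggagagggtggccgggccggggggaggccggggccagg
DSG3, chr18:31447491-31447740, plus strand: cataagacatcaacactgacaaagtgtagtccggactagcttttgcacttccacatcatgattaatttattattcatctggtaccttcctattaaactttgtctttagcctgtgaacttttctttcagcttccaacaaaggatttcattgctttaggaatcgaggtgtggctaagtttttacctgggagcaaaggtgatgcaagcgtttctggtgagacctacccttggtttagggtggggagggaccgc
DSC2, chr18:31102422-31102671, minus strand: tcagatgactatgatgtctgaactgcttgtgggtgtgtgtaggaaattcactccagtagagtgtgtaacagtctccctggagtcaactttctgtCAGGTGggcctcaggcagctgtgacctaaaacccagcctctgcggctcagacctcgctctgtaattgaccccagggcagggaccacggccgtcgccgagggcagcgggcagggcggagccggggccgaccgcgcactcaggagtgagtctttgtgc
DSC2, chr18:31101261-31101510, minus strand: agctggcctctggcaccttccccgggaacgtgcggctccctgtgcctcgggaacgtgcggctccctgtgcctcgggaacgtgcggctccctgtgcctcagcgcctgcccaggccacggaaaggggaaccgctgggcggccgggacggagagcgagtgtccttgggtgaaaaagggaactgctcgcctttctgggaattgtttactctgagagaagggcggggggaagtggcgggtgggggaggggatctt
DSC3, chr18:31042743-31042992, minus strand: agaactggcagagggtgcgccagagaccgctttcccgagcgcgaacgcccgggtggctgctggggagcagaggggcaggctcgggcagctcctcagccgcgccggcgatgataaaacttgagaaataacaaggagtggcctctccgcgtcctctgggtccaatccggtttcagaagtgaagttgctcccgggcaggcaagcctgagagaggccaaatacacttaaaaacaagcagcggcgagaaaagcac
DSP, chr6:7541421-7541670, plus strand: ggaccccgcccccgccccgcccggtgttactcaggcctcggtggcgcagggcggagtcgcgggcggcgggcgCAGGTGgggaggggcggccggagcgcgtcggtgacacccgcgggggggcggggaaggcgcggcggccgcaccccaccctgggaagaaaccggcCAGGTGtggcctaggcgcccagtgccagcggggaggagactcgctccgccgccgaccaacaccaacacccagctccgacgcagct

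Base composition separated DSG2 from its neighbour. The DSG2 window was 75.2% G or C with 26 CpG dinucleotides, whereas that of DSG3 was 42.8% G or C with 4. The DSC2 and DSC3 windows did not separate in this way: they had 59.6% and 66.8% G or C for DSC2 and 60.4% for DSC3, with 12, 19 and 18 CpG. DSP had 78.0% and 33 CpG. Over 35116 RefSeq promoter windows of the same length the median was 58.0% G or C and 11 CpG. CACCTG occurred in 4 of the 10 windows held for 8 of the members (2 matches in DSG2, 1 in a DSC2 window, 2 in DSP and 2 in a JUP window), against 17.5% of all windows. The grainyhead-like motif AACCNGTT was in 0 of the 10 windows (1.49% of all windows) and the AP-1 motif TGANTCA in 1, that of PERP (6.57%), both searched on either strand. A match describes letters only, and no binding was measured.

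**Figure D1:**
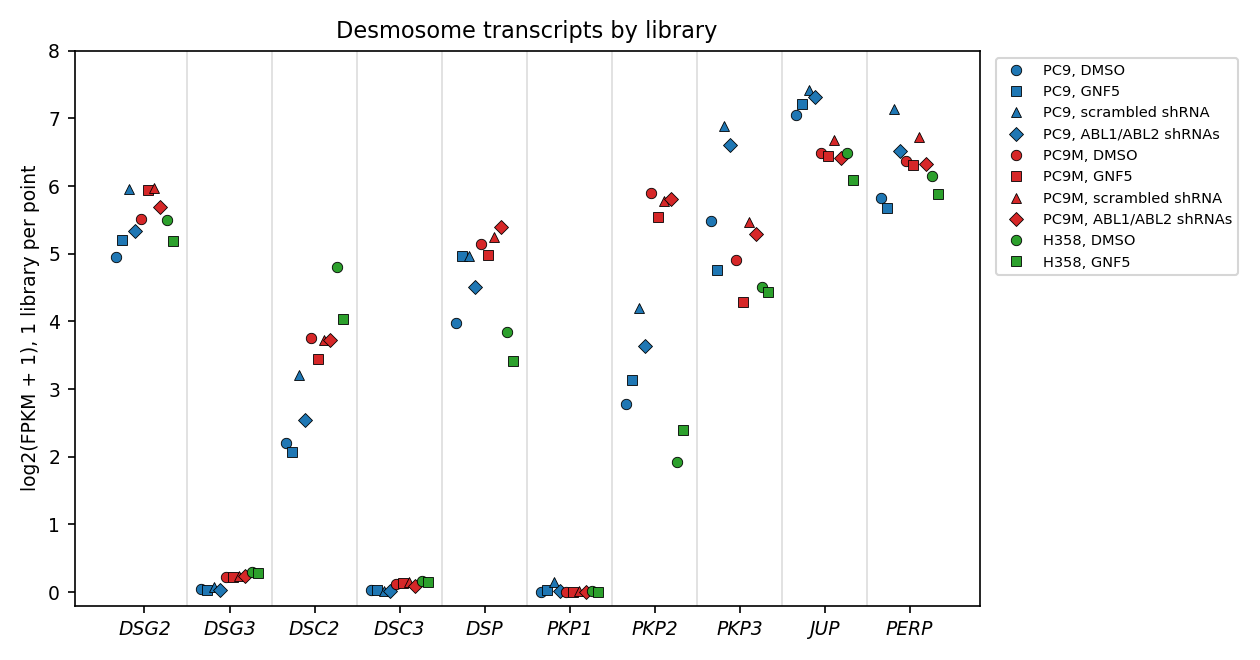
Level of each desmosome gene, log2(FPKM + 1), in each of the 10 libraries (colour, cell line; symbol, treatment; 1 point per library). DSG3, DSC3 and PKP1 lie near 0 in every library, at 0.226 FPKM or less, and PKP2 covers the widest range among the other 7, from 2.79 to 58.6 FPKM.

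Among the cadherins, DSG2 was the main one in each library. Its level in PC9 was 30.1 FPKM with DMSO, 35.9 FPKM with GNF5, 61.2 FPKM with the scrambled shRNA and 39.2 FPKM with the ABL shRNAs. In PC9M the same 4 libraries gave 44.9, 60.2, 61.5 and 50.6 FPKM, and in H358 DMSO and GNF5 gave 44.1 and 35.4 FPKM. The GNF5 library was thus the higher of its pair in PC9 and PC9M and the lower in H358, and both ABL shRNA libraries were lower than their controls.

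DSC2, the desmocollin of simple epithelia, differed by line. It stood in PC9 at 3.60 FPKM with DMSO, 3.21 FPKM with GNF5, 8.24 FPKM with the scrambled shRNA and 4.85 FPKM with the ABL shRNAs. PC9M gave 12.6, 9.90, 12.2 and 12.2 FPKM in the same order, and H358 gave 26.9 FPKM with DMSO and 15.3 FPKM with GNF5. The 3 lines did not overlap for DSC2, with PC9 lowest and H358 highest. DSP and PKP2 also separated the lines, with H358 lowest and PC9M highest, which makes 3 of 7 members with DSC2 (against 25.6% of 14523 genes).

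The stratified-epithelium cadherins were close to the bottom of the scale. DSG3, the pemphigus vulgaris antigen, ranged from 0.0226 to 0.226 FPKM over the 10 libraries and DSC3 from 0.00961 to 0.124 FPKM. Together they made up at most 0.628% of the FPKM of the 4 cadherins, in the H358 GNF5 library. In H358, TP63, a master regulator of stratified epithelia, stood at 34.4 FPKM with DMSO and 5.66 FPKM with GNF5, while DSG3 was at 0.226 and 0.214 FPKM. The deposited tables hold no read counts, so the depth is unknown and no detection limit can be given for these levels.

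Desmoplakin (DSP) stood in PC9 at 14.7 FPKM with DMSO, 30.3 FPKM with GNF5, 30.2 FPKM with the scrambled shRNA and 21.7 FPKM with the ABL shRNAs. PC9M gave 34.4, 30.7, 37.2 and 41.3 FPKM, and H358 gave 13.4 and 9.66 FPKM. The PC9 DMSO library was the lowest of the 4 PC9 libraries. The GNF5 and scrambled libraries of PC9, from different tables, lay at nearly the same level.

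Plakophilin 2 (PKP2), which binds desmoplakin at the plaque, showed the widest spread of the expressed members. In PC9 it stood at 5.84 FPKM with DMSO, 7.82 FPKM with GNF5, 17.3 FPKM with the scrambled shRNA and 11.4 FPKM with the ABL shRNAs. All 4 PC9M libraries were above these, at 58.6, 45.6, 54.1 and 54.9 FPKM, and H358 was below them, at 2.79 and 4.24 FPKM. PKP3, the plakophilin found across simple and stratified epithelia, stood in PC9 at 43.8, 26.1, 117 and 96.0 FPKM, in PC9M at 28.9, 18.6, 43.5 and 38.3 FPKM, and in H358 at 21.8 and 20.6 FPKM. For PKP3 the PC9 and PC9M libraries overlapped, and the treated library was the lower of each pair. PKP1 was at 0 in the PC9M GNF5 library and at most 0.104 FPKM elsewhere.

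Plakoglobin (JUP), which also sits in adherens junctions, was the most abundant member in most libraries. Its levels were 131, 147, 171 and 158 FPKM in PC9, 88.5, 86.5, 102 and 84.3 FPKM in PC9M, and 88.5 and 67.0 FPKM in H358. PERP, a tetraspan protein needed for desmosome assembly in mouse skin and a target of p53 and p63, gave 55.9, 50.3, 139 and 90.6 FPKM in PC9. It gave 81.5, 78.7, 105 and 79.6 FPKM in PC9M and 69.9 and 57.8 FPKM in H358. The treated library was the lower of each pair for PERP.

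The make-up of the plaque differed by line. Because a share within a library does not depend on how a table was scaled, it can be set side by side across tables. PKP2 made up 10.6% to 23.0% of the plakophilin FPKM in the 4 PC9 libraries, 55.4% to 71.1% in the 4 PC9M libraries and 11.3% to 17.1% in the 2 H358 libraries. DSG2 was 7.43 to 11.2 times DSC2 in PC9, 3.57 to 6.08 times in PC9M and 1.64 to 2.31 times in H358. JUP was 4.85 to 8.90 times DSP in PC9, 2.04 to 2.82 times in PC9M and 6.61 to 6.94 times in H358. The PC9M libraries thus stood apart from both other lines in the plakophilin share and in JUP to DSP, and the 3 lines were separate in DSG2 to DSC2. Each quantity holds a member that separated the 3 lines by itself (PKP2, DSP or DSC2), as 25.6% of 14523 genes did. No share over other pairs of genes was taken, so these quantities are not read as particular to the desmosome. Libraries of 1 line are not replicates, since each had a different treatment, so no test was made.

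Over the 4 libraries of each line, DSC2, DSP and PKP2 were higher in every PC9M library than in any PC9 library (3 of 7 members), and 28.3% of 13497 genes did the same. JUP was lower in every PC9M library (1 of 7, against 23.7% of genes). Between the DMSO libraries of PC9M and PC9, after setting the median of all genes to 0, 5 of 7 members were at least 1.5-fold apart, against 65.1% of genes. PKP2 differed by a log2 ratio of 2.98 there and by 1.63 between the scrambled libraries, where 3 of 7 members and 57.3% of genes were as far apart. H358 against PC9 gave 4 of 7 members (66.0% of genes), led by DSC2 at 2.17, and H358 against PC9M gave 4 of 7 (56.1%), led by PKP2 at -4.22. These counts lie near or under the shares of all genes. JUP between H358 and PC9M is at 0.00 without this centring and -0.25 with it.

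**Figure D2:**
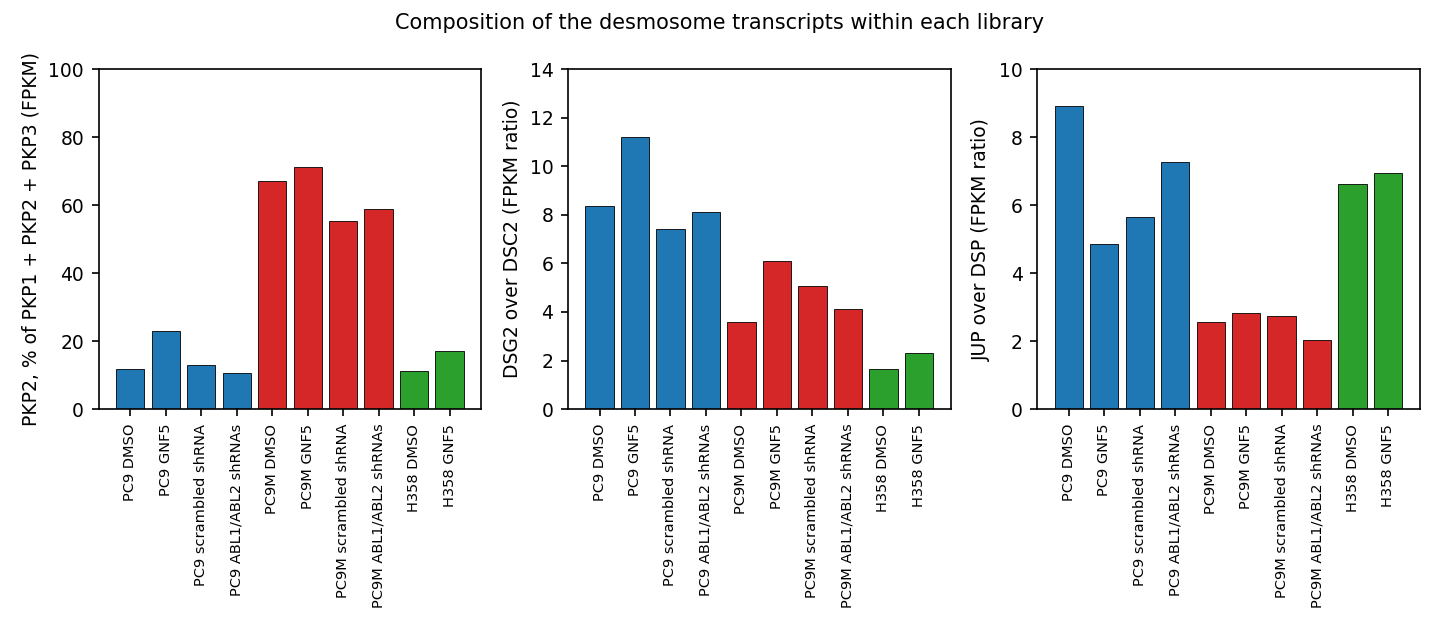
Make-up of the desmosome transcripts within each of the 10 libraries (bars; colour, cell line): PKP2 as a percentage of the 3 plakophilins, and the FPKM ratios of DSG2 to DSC2 and of JUP to DSP. PKP2 is 55.4% to 71.1% of plakophilins in PC9M and at most 23.0% in the other lines.

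The control libraries of a line did not match each other. In PC9, the scrambled shRNA library was higher than the DMSO library for 7 of 7 members after centring, by at least 1.5-fold for all but JUP (6 of 7, against 17.1% of genes). The centred log2 ratios were 1.26 for PKP2, 1.24 for PKP3, 1.14 for PERP, 0.84 for DSG2 and DSC2, 0.82 for DSP and 0.21 for JUP. In PC9M, only PKP3 was as far above, at 0.59 (1 of 7, against 3.8% of genes). KRT6A, a keratin of stratified epithelia, differed between the same libraries, at 3.84 FPKM with DMSO and 112 FPKM with the scrambled shRNA in PC9, and 0.956 and 67.1 FPKM in PC9M. Transduction, table normalisation and culture cannot be told apart between these controls.

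Treatment with GNF5 was then read within each table, as log2((GNF5 FPKM + 1)/(DMSO FPKM + 1)). This scale understates the change of low genes, and with 1 library per group a single ratio has no replicate check. In PC9, DSP was higher with GNF5, by 2.06-fold in plain FPKM (log2 ratio 0.99), and PKP3 was lower, at a log2 ratio of -0.73. The others lay between -0.15 for PERP and 0.37 for PKP2. Thus 1 of 7 members was at least 1.5-fold higher, against 13.0% of 12004 genes, and 1 of 7 was as far lower, against 20.0%. The median over the 7 was 0.16 and over all genes -0.10.

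In PC9M, at the higher labelled dose, PKP3 was again lower with GNF5 (-0.61) and the only member past 1.5-fold. It was 1 of 7 lower, against 8.04% of 12370 genes, and 0 of 7 higher, against 5.65%. With the median of all genes set to 0, PKP3 came to -0.55 and no member was past 1.5-fold lower (6.29% of genes were). DSG2 stood at 0.42, and DSP, the member furthest from 0 in PC9, at -0.16. The median over members was -0.16 and over all genes -0.06.

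In H358, DSC2 was lower with GNF5 (-0.77), as 1 of 7 members past 1.5-fold, against 10.9% of 12951 genes, and 0 of 7 were as far higher, against 2.76%. Most genes were lower in this library, 74.5% of them, with a median of -0.19, and the median over members was -0.31. Relative to that median, DSC2 came to -0.58 and 0 of 7 members were past 1.5-fold lower (4.9% of genes), while PKP2 came to 0.66 as 1 of 7 higher (5.13% of genes). DSG2, DSP and JUP stood at -0.31, -0.43 and -0.40 before centring.

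A pair of within-library quantities were higher with GNF5 than with DMSO in all 3 lines. The PKP2 share of plakophilins went from 11.8% to 23.0% in PC9, from 67.0% to 71.1% in PC9M and from 11.3% to 17.1% in H358. DSG2 to DSC2 went from 8.36 to 11.2, from 3.57 to 6.08 and from 1.64 to 2.31. With the ABL shRNAs these shares had no common direction. The PKP2 share was 12.9% and 10.6% in PC9 and 55.4% and 58.9% in PC9M, and DSG2 to DSC2 was 7.43 and 8.10 in PC9 and 5.06 and 4.13 in PC9M. These quantities were chosen after their values were seen and were not tested. The leukocyte marker sum was also higher with GNF5, at 11.1 and 18.4 FPKM in PC9, 18.4 and 41.5 FPKM in PC9M, and 13.5 and 29.6 FPKM in H358. CD68 was the largest part of it, at 7.89 and 16.7 FPKM in PC9, 16.2 and 39.1 FPKM in PC9M, and 11.6 and 28.0 FPKM in H358. CD14 had lower values with GNF5 in PC9 (2.66 and 1.18 FPKM) and H358 (1.06 and 0.504 FPKM), and CD3E was at 0 in PC9 and PC9M. The endothelial sum was 31.6 and 15.8 FPKM in PC9, mostly PECAM1. How far these markers bear on the members was not tested.

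With the ABL1/ABL2 shRNAs in PC9, 7 of 7 members were lower than in the scrambled library, where 62.3% of all genes were lower. The log2 ratios were -0.66 for DSC2, -0.63 for DSG2, -0.62 for PERP, -0.57 for PKP2, -0.46 for DSP, -0.29 for PKP3 and -0.11 for JUP. DSG2, DSC2 and PERP were at least 1.5-fold lower (3 of 7, against 6.43% of 11861 genes), and 0 of 7 were as far higher, against 4.07%. With the all-gene median of -0.09 set to 0, these 3 came to -0.54, -0.57 and -0.52, so that 0 of 7 were past 1.5-fold (4.54% of genes). All 7 stayed lower after this centring, with a median over members of -0.47, beside -0.57 before it. The control of this pair is the PC9 scrambled library, in which all 7 members were above the DMSO library. The squamous marker sum was 222.6 and 86.5 FPKM with the scrambled and the ABL shRNAs, beside 41.7 FPKM with DMSO. KRT6A stood at 112 and 19.5 FPKM and KRT5 at 89.3 and 61.5 FPKM, both above their DMSO levels of 3.84 and 12.6 FPKM, whereas KRT14, at 21.1 and 5.20 FPKM, was not above its DMSO level. Their part in the members' values was not tested.

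In PC9M the shRNAs gave smaller ratios, from -0.39 for PERP to 0.15 for DSP. None of the 7 was past 1.5-fold, with 0 lower against 2.23% of 12126 genes and 0 higher against 2.27%. DSG2 stood at -0.28, JUP at -0.27 and PKP3 at -0.18, while DSC2 and PKP2 lay at 0.01 and 0.02. The median over members was -0.18 and over all genes -0.01. ABL1 itself had a log2 ratio of -1.33 in PC9M and -2.38 in PC9. No member reached 2-fold on the log2(FPKM + 1) scale in any comparison. DSP with GNF5 in PC9, at 0.99, was the nearest, and it passed 2-fold with a pseudocount of 0.1 (1.04) and with the all-gene median set to 0 (1.09, as 1 of 7 members, against 11.5% of genes). Among all genes 12.0% did so with GNF5 in PC9, 3.39% in PC9M and 3.52% in H358, and 3.13% of PC9 and 1.82% of PC9M genes with the shRNAs.

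**Figure D3:**
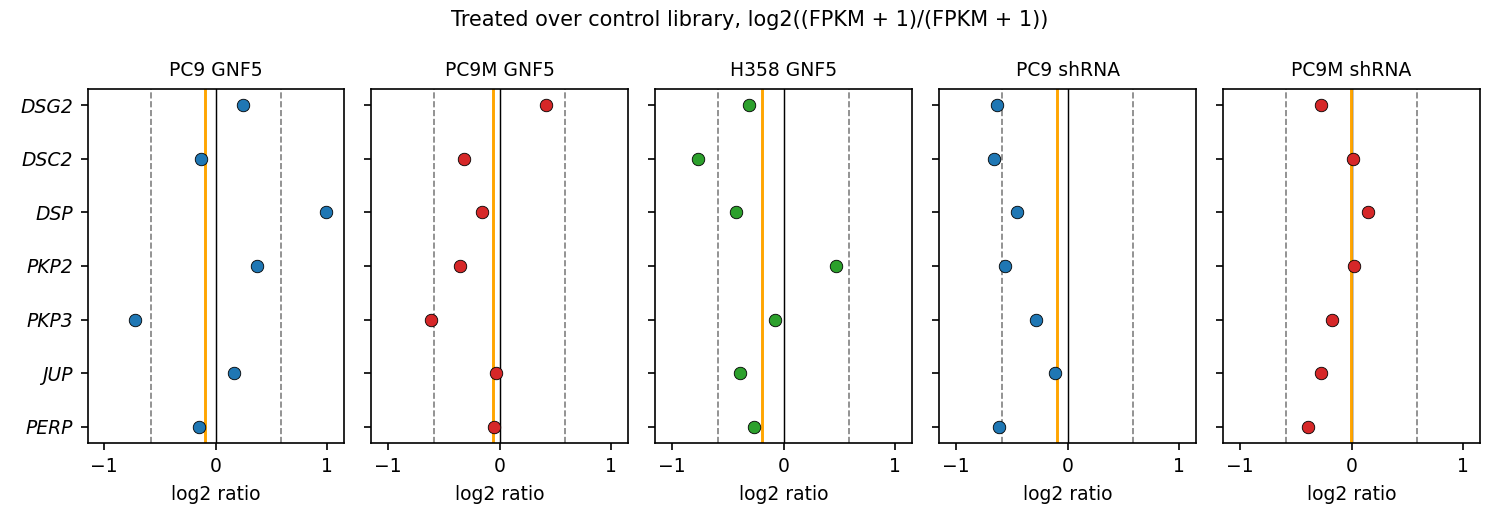
log2 ratio of treated over control library for the 7 expressed members (points), in 1 panel per comparison; dashed lines mark 1.5-fold, the orange line the median of all genes. DSP with GNF5 in PC9, at 0.99, lies furthest from 0, and all 7 points lie below 0 for the shRNAs in PC9.

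PKP3 and PERP were the members lower in 5 of 5 comparisons (2 of 7, against 12.8% of 10305 genes). This direction depends on the scaling: with each all-gene median set to 0, both were lower in 4 of 5, with PKP3 at 0.11 in H358 and PERP at 0.01 with GNF5 in PC9M. The comparisons within a line were made against different controls, so no control library is used more than once.

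To ask whether a ratio recurred across lines, limma was fitted to the 5 log2 ratios of 13885 genes, with 1 term for GNF5 (3 lines) and 1 for the shRNAs (2 lines). The spread is that between lines, each with 1 library pair, and the names of PC9M and PC9 leave their independence uncertain. The GNF5 ratios also differ in labelled dose, 20 mM in PC9M and 10 mM in PC9 and H358. Dose and line cannot be told apart in their mean and spread. By limma with Benjamini-Hochberg adjustment, 0 of 7 members passed 0.05 for GNF5, where 1 gene did (0.0072% of those fitted), the microRNA gene MIR149, named after its value was seen. For the shRNAs, for the average of both perturbations and for GNF5 minus shRNAs, 0 of 7 members and 0% of genes passed. At an unadjusted p under 0.05 there were 1, 1, 2 and 0 members in these 4 contrasts, beside 2359, 595, 1336 and 1137 genes, or 17.0%, 4.29%, 9.62% and 8.19%. ABL1, the gene targeted by the shRNAs, had an estimate of -1.86 (SE 0.258) and an adjusted p of 0.545 in the same limma fit, so a difference of that size was not called with these libraries either.

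PKP3 had the lowest adjusted limma p of the members for GNF5, with a log2 estimate of -0.47 (SE 0.155, 95% interval -0.85 to -0.09, adjusted p = 0.265), lower in 3 of 3 lines. DSC2 was also lower in 3 of 3, at -0.41 (SE 0.194, interval -0.89 to 0.07, limma adjusted p = 0.342). Among all genes, 57.0% in PC9, 57.7% in PC9M and 74.5% in H358 were lower with GNF5. After centring on each all-gene median, PKP3 was at 0.11 in H358, while DSC2 stayed below 0 in each line, at -0.03 in PC9. The limma estimates from centred ratios were -0.36 for PKP3 (limma adjusted p = 0.407) and -0.29 for DSC2 (limma adjusted p = 0.480). For the shRNAs PERP stood at -0.50 (SE 0.140, interval -0.85 to -0.16, limma adjusted p = 0.993), lower in 2 of 2 lines. DSG2, PKP3 and JUP were lower in 2 of 2 as well, where 62.3% of all genes in PC9 and 51.9% in PC9M were lower. PERP averaged over both perturbations came to -0.33 and PKP3 to -0.35, each with a limma adjusted p of 0.505. DSP had the widest interval for GNF5, from -0.59 to 0.86 around 0.13. The difference between GNF5 and shRNAs was largest for DSG2, at 0.57 (SE 0.274, interval -0.11 to 1.25, limma adjusted p = 0.638), and its interval covers 0.

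**Figure D4:**
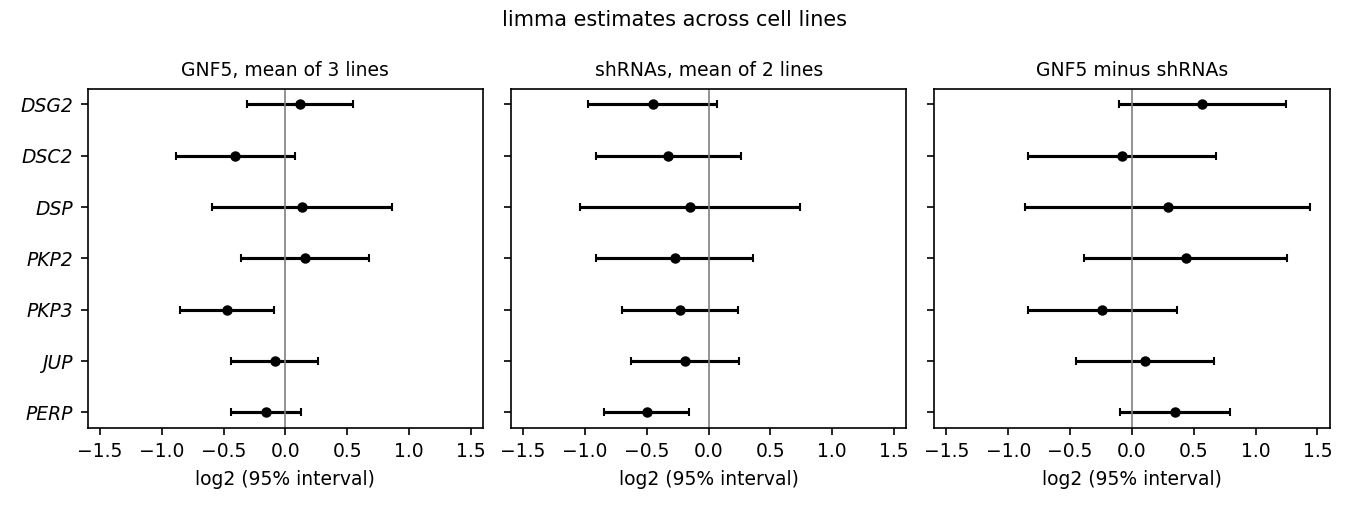
limma estimates (points) with 95% intervals (bars) for the 7 expressed members, as log2 ratios averaged over the 3 lines with GNF5, over the 2 lines with shRNAs, and their difference. The intervals of PKP3 for GNF5 and of PERP for the shRNAs lie below 0 before adjustment for the number of genes, and none passes after it. The ratios shown are not centred. Centred ratios gave estimates of -0.36 for PKP3 with GNF5 and -0.45 for PERP with the shRNAs.

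In the authors' deposited tables, 36 of the 50 pairs of a member and a table carry a completed test and 14 do not. In the authors' deposited tables the lowest q-value of a member was 0.521, for DSC2 with GNF5 in H358, and 0 of the 36 had a q-value under 0.05. An unadjusted p under 0.05 stood beside 2 of them in the authors' deposited tables, DSC2 with GNF5 in H358 (0.00978) and DSC2 with the shRNAs in PC9 (0.0384).

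Other junction genes were grouped by structure into 7 lists, and by limma 0 genes of any list passed in any of the 4 contrasts. As background for the counts of direction, 57.0% of all genes in PC9, 57.7% in PC9M and 74.5% in H358 were lower with GNF5, and 62.3% and 51.9% were lower in PC9 and PC9M with the shRNAs. Among other desmosome genes, 3 of 7 were measured: PKP4, an armadillo protein related to the plakophilins, and the plakins PPL and EVPL. PPL, periplakin, was the only one past 1.5-fold, at 65.2 FPKM with DMSO and 39.2 FPKM with GNF5 in PC9 (-0.72). All 3 were lower with GNF5 in PC9M and in H358 and with the shRNAs in PC9.

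Hemidesmosome genes, which anchor keratin to the basement membrane rather than to a neighbouring cell, were lower with GNF5 in PC9 for 9 of 9 genes measured, 6 of them by at least 1.5-fold (20.0% of all genes). The median was -0.67, against -0.10 over all genes. PLEC, plectin, the plakin related to desmoplakin, stood at 88.4 and 17.9 FPKM (-2.24), the integrin chains ITGA6 at 161 and 72.8 FPKM (-1.13) and ITGB4 at 103 and 47.9 FPKM (-1.09). DSP in the same pair of libraries was at 0.99. With GNF5, 4 of 8 were lower in PC9M and 7 of 9 in H358, near the 57.7% and 74.5% of all genes, with PLEC at -0.67 in PC9M.

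Adherens junction genes divided evenly in PC9 with GNF5, 5 of 10 lower. Past 1.5-fold, 1 was higher (13.0% of all genes) and 1 lower (20.0%), which was CDH1, E-cadherin, at 67.0 and 21.7 FPKM (-1.58). In PC9M with GNF5, 1 of 11 was past 1.5-fold higher (5.65% of all genes) and 0 lower (8.04%), with CDH1 at 75.9 and 68.0 FPKM. With the shRNAs CDH1 was at -0.75 in PC9 and -0.38 in PC9M. In H358 with GNF5, 9 of 11 were lower (74.5% of all genes), where the median of all genes was -0.19. Past 1.5-fold, 2 were lower (10.9% of all genes) and 0 higher (2.76%). These were CDH3, P-cadherin, at -0.83 and PVRL1, nectin 1, at -0.88. Tight junction genes were higher with GNF5 in PC9 for 9 of 12, with CLDN3 at 1.04, while CLDN1 was at -1.57. Past 1.5-fold, 3 of 12 were higher (13.0% of all genes) and 1 lower (20.0%). CLDN1 was at 0.67 with GNF5 in PC9M and at -0.81 with GNF5 in H358. With the shRNAs it was at -0.78 in PC9M, and in PC9 it stood at 18.6 FPKM with the scrambled and 23.5 FPKM with the ABL shRNAs.

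Keratins, the filaments that desmoplakin holds, were lower for 7 of 10 genes with the shRNAs in PC9 (62.3% of all genes) and for 7 of 9 in PC9M (51.9%). KRT6A was at -2.46 and -1.79, KRT16 at -1.42 and -1.06, and KRT14 at -1.83 in PC9. KRT7 and KRT18 were higher with the shRNAs in both lines, and KRT17 was higher in PC9. KRT6A, KRT16 and KRT14 have close copies among the keratins and their pseudogenes, so their values are uncertain where reads were split. KRT8 and KRT18, the simple-epithelium pair, stood at -0.87 and -0.65 with GNF5 in PC9M. In PC9 both were higher with GNF5 than with DMSO, KRT8 at 2485 beside 1881 FPKM and KRT18 at 2651 beside 1958 FPKM. In H358 both were lower, KRT8 at 489 beside 743 FPKM and KRT18 at 384 beside 569 FPKM.

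Among regulators of epithelial junctions, the repressors SNAI2 (4.28 and 22.2 FPKM), SNAI1 (3.25 and 10.2 FPKM) and TWIST1 (1.74 and 5.92 FPKM) were higher with GNF5 in PC9, at log2 ratios of 2.14, 1.39 and 1.34. CDH1 was lower and DSP higher in the same library. SNAI1 was at 0.93 with GNF5 in PC9M. GRHL2, a grainyhead-like activator of junction genes, was lower with GNF5 in all 3 lines, at 10.3 and 5.99 FPKM in PC9, 24.0 and 14.7 FPKM in PC9M, and 20.3 and 15.7 FPKM in H358. It was higher with the shRNAs, at 14.1 and 17.4 FPKM in PC9 and 18.9 and 22.4 FPKM in PC9M. With the shRNAs, 7 of 9 regulators in PC9 and 7 of 8 in PC9M were lower, GRHL2 not among them, with KLF5 at -0.50 and -0.48. Gap junction genes, of which 3 or 4 of 6 were measured, were lower for 3 of 3 with the shRNAs in PC9, with GJB5 at -0.76.

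**Figure D5:**
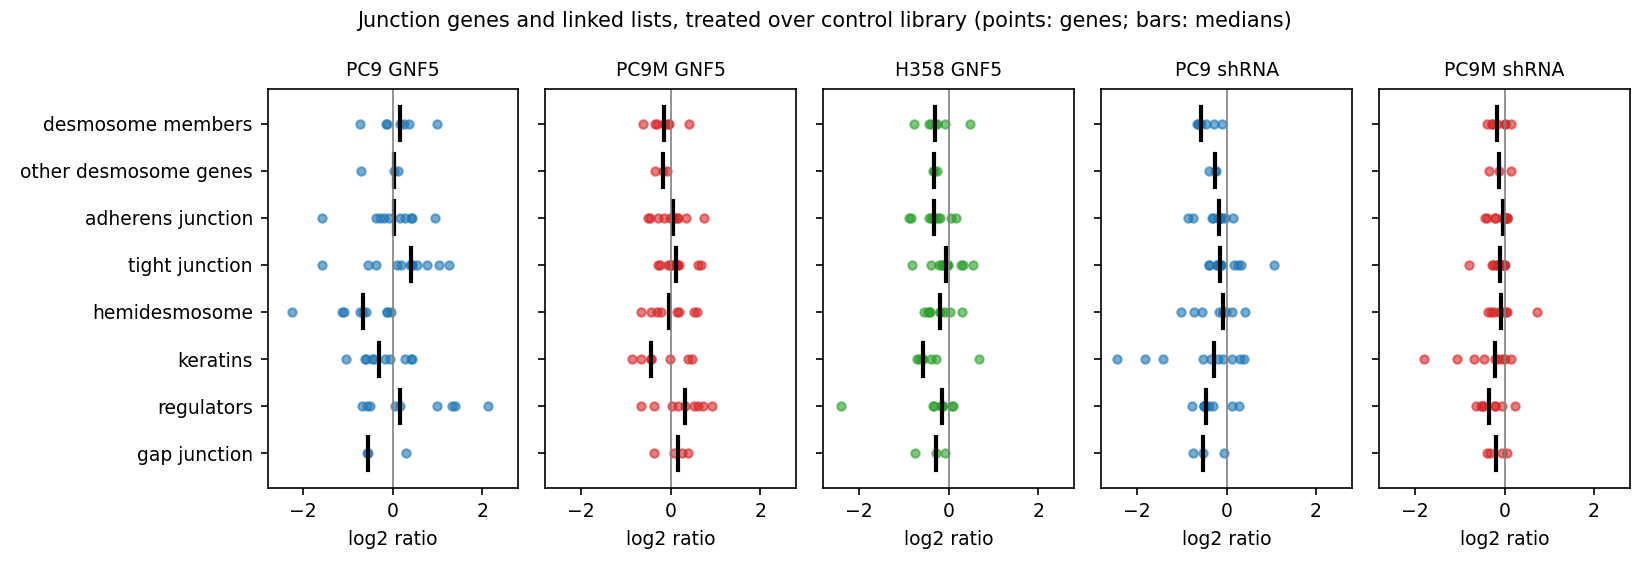
log2 ratio of treated over control library for the 7 expressed desmosome members and 7 linked gene lists (points, genes at 1 FPKM or more in either library; bars, medians), in 1 panel per comparison. The hemidesmosome median with GNF5 in PC9 is -0.67 and that of the desmosome members 0.16.

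Some genes shared the course of a member over the 5 ratios more closely than others. By root mean square difference over 9557 genes, those nearest to DSP were AHDC1 (0.0741), HSP90AB3P (0.0929) and METAP1 (0.106), each with a log2 ratio between 1.03 and 1.05 for GNF5 in PC9. HSP90AB3P is a pseudogene and may take reads of its parent gene. Nearest to DSC2 were PVRL1 (0.122), CALM2 (0.124) and PEBP1 (0.132). PVRL1 stood at -0.88 with GNF5 in H358 and -0.86 with the shRNAs in PC9, beside -0.77 and -0.66 for DSC2. These are the nearest of many genes over 5 values and carry no test.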

How the data were processed

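RNA of 10 libraries was aligned and compared by the authors with TopHat and Cuffdiff on hg18, per the submitters' processing notes; versions are not given in the sources used here. The deposited values are FPKM per gene with the authors' p-values and q-values, in 5 tables normalised separately. Depth is unknown, since the files give no counts. The tables were joined by symbol (23234 genes); 28 date-like entries per table were left out.

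Ratios within a table were taken as log2((treated FPKM + 1)/(control FPKM + 1)) for genes at 1 FPKM or more in either library, and 1.5-fold marks a difference without a test. limma 3.58.1 (R 4.3.3) was fitted to the 5 ratios of genes at 1 FPKM or more in 2 or more libraries, with a trended prior, 3 residual degrees of freedom and Benjamini-Hochberg adjustment at 0.05, after testing on simulated data. Since each group has 1 library, the spread behind a p-value is that of different lines, and may be partly technical. For GNF5, PC9M also had a higher labelled dose than the other lines. Control libraries were compared after centring on the all-gene median. Promoter windows keep only the 250 bases before a RefSeq start; those of PKP2 and PKP3 were not used here.

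The members and gene lists were chosen with earlier results of these data known. Named genes are all members, the 3 genes of each list with the largest ratio in a comparison, the 3 nearest to DSP and DSC2, and marker and target genes. 1 gene among these is not reported here. Other pseudocounts, minimums, centring, a robust prior, a cell-line block and leaving out each ratio were tried.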

Additional observations from a re-analysis of the deposited data

Results flagged for a closer look

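DSP had log2 ratios of opposite sign among the lines with GNF5. Its log2 ratio was 0.99 in PC9, -0.16 in PC9M and -0.43 in H358, a distance of 1.42 between the highest and the lowest, and the difference was not tested. With the shRNAs, the log2 ratio of DSC2 was -0.66 for PC9 and 0.01 for PC9M, a distance of 0.67, and this difference was not tested either.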

How the results depend on the processing

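Members passing limma numbered 0 in each contrast and alternative that was fitted (of 10 members with no minimum FPKM, otherwise of 7); fits of GNF5 or shRNA ratios alone give 1 contrast each. Ratios of members past 1.5-fold depended on scaling. Members lower with GNF5 in PC9M went from 1 to 0 with a pseudocount of 5 and with centring. In H358, members higher with GNF5 went from 0 to 1 (PKP2, 0.59 with a pseudocount of 0.1 and 0.66 centred) and members lower from 1 to 0 with centring. Members lower with the shRNAs in PC9 went from 3 to 4 with a pseudocount of 0.1 (PKP2 added, at -0.60), to 1 with a pseudocount of 5 and to 0 with centring.

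All genes at least 1.5-fold higher and lower, 1562 and 2396 with GNF5 in PC9, became 936 and 1100 with a pseudocount of 5. In PC9M, 699 and 995 became 301 and 530. In H358, where 1411 were lower, they became 238 and 559, and 664 and 635 with centring, which changes the split of directions. For the shRNAs, 483 and 763 in PC9 became 215 and 390. In PC9M, 275 and 271 became 177 and 147, and 449 were lower with a pseudocount of 0.1. Genes past 2-fold with a pseudocount of 5 numbered 628 in PC9, 222 in PC9M and 257 in H358 with GNF5, and 190 in PC9 and 140 in PC9M with shRNAs, beside 1441, 419, 456, 371 and 221. With a pseudocount of 0.1 they numbered 2302, 713, 762 and 583 in all but the last.

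The number of genes called by limma was 1, 0, 0 and 0 for GNF5, shRNAs, average and difference. It became 3, 1, 2 and 2 with a pseudocount of 0.1. For GNF5 it became 0 with a pseudocount of 5, with no minimum FPKM and with GNF5 ratios alone, and 2 with a minimum of 5 FPKM or with centring. For the shRNAs it became 1 with centring and 1 with a robust prior, which gave 2 for the average and 2 for the difference. The labels give no replicate numbers; with the cell line as a replicate block, the pairing of ratios of 1 line, it was 0 for GNF5. Leaving out each ratio in turn gave 0 to 5 for GNF5, 0 to 5 for the shRNAs, 0 to 4 for the average and 0 to 5 for the difference; a lone shRNA ratio is then assumed to vary like the others. The causes were not tested. Library pairs without replicates and unknown depth limit all values, most of all those of DSG3, DSC3 and PKP1.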
